A study of Mus musculus with 12 samples.

Results

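In white fat of mice exposed to cold, 10 genes that shape mitochondria and mark them for removal were followed: the fusion genes Mfn1, Mfn2 and Opa1, the inner membrane proteases Oma1 and Yme1l1, the fission genes Dnm1l, Fis1 and Mff, and the mitophagy genes Pink1 and Bnip3. Every probe set of the expression array annotated to 1 of these 10 symbols was taken, whatever its signal, which gave 26 of the 34945 probe sets that name a single gene. A probe set is a group of short probes read out as 1 signal, and a gene can have several. A total of 21 exceeded log2 4 on at least 3 arrays and were tested among 22378, and each of the 10 genes kept at least 1. The other 5 were too dim to test: Mfn2 1451900_at, Yme1l1 1437822_at, Dnm1l 1428008_at and Mff 1457371_at lay below log2 4 on all 12 arrays, and Mfn1 1419997_at exceeded it on 1.

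Mitochondria join and divide continuously. The mitofusins Mfn1 and Mfn2 tether and fuse the outer membranes of neighbouring mitochondria, and Opa1 fuses the inner membranes and keeps the necks of the cristae tight. Oma1 and Yme1l1 cut Opa1 into its short forms. Division is carried out by the GTPase Drp1, the product of Dnm1l, which is recruited to the outer membrane by adaptors such as Mff, while Fis1 is a small outer membrane anchor tied to fission and to mitophagy. Pink1 is a kinase that builds up on damaged mitochondria and starts their removal, and Bnip3 is an outer membrane receptor that hands mitochondria to the autophagosome and is a known target of hypoxia. In thermogenic fat cells, adrenergic stimulation is known to fragment mitochondria, cold is known to increase mitochondrial mass, and mitophagy is known to accompany the return of beige cells to a white state.

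The arrays carried RNA of white adipose tissue from male C57/BL6 mice, 6 to 8 weeks old, in 4 groups of 3 arrays: 1 week controls, 1 week at 4 °C, 5 week controls and 5 weeks at 4 °C. Animals of all groups had lived at 22 °C. The protocol, worded alike for every sample, places 1 to 3 weeks at 18 °C before the move to 4 °C and does not say whether controls went through it; no genotype or drug is named for any group. The titles give 30 °C for the controls and the source names give room temperature, so the temperature step between the groups is not settled. The fat depot is not named, and the labels do not tie the arrays of a group to different mice. The p-values therefore describe array-to-array spread, part of which may be technical, and with 3 arrays a group the precision is low.

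Several features of the arrays bear on the results. Array medians lay between 4.79 and 4.89, and Ucp1, which marks thermogenic fat cells, was 6.32 to 8.15 on the control arrays and 14.56 to 15.15 on the cold arrays, so every array matched its label on this gene. The mean of 8 white adipocyte markers was 12.65 to 13.12 in 1 week controls, 12.64 to 12.82 in 1 week cold, 13.11 to 13.21 in 5 week controls and 12.45 to 12.73 in 5 week cold; 2 of the 8 rose and 3 fell at 1 week, and 1 rose and 3 fell at 5 weeks. A list of 15 skeletal muscle genes averaged 8.23 to 8.53 on the 5 week controls and 9.94 on 1 week cold array 2, against 4.94 to 5.76 on the other 8 arrays. The mean of 10 macrophage markers was 11.29 to 11.42 in 1 week controls, 10.73 to 10.95 in 1 week cold, 11.57 to 11.60 in 5 week controls and 10.50 to 10.80 in 5 week cold. That of 9 lymphocyte markers was 9.49 to 10.21, 8.76 to 9.22, 9.93 to 9.99 and 8.95 to 9.00 in the same order, and that of 9 brown or beige adipocyte markers was 6.61 to 7.47, 11.72 to 12.06, 6.99 to 7.34 and 11.17 to 11.73. RNA quality was read from control probe sets at the 3 prime and 5 prime ends of a transcript, whose difference grows when RNA is broken. For Gapdh it was 3.00, 3.12 and 3.01 (log2) on 1 week control arrays 2 and 3 and 5 week cold array 3, and -0.08 to 0.96 elsewhere. For Actb it was 1.84 to 2.80 in 5 week cold and 1.01 to 1.35 in the other groups. The part of these features in the results was not tested; values without the arrays concerned, or with the feature as a covariate, are given beside the members.

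Promoters of 3 members are shown because these genes moved in different ways. Opa1 rose at both times, Bnip3 fell at 1 week and Fis1 fell at 5 weeks. The sequences are from RefSeq (GRCm38.p6), run 5′ to 3′ on the gene's strand and lie before the start given in the promoter table. They are chr16:29579084-29579284 (plus strand) for Opa1, chr7:138909507-138909756 (minus strand) for Bnip3 and chr5:136953025-136953274 (plus strand) for Fis1. The Opa1 window is printed only to the end of its match. The last 4 bases of that match lie inside the gene as the RefSeq gene table begins it. The start in the promoter table, from which distances are counted, lies further downstream. Capitals mark matches on either strand: in Opa1 to GCATGCGC, the core of the palindromic NRF1 site. In Bnip3 they mark matches to ACGTG, the core of the hypoxia response element. In Fis1 they mark matches to GGGCGG, the GC box of SP1, which here lie on the opposite strand.
Opa1: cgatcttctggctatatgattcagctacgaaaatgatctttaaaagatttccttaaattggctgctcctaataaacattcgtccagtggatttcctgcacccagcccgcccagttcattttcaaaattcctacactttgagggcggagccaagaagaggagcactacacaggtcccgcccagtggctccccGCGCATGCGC
Bnip3: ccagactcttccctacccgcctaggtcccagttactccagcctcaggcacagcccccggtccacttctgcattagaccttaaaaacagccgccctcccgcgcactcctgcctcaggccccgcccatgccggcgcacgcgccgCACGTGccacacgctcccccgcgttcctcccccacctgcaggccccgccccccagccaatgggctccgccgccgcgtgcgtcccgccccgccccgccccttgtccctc
Fis1: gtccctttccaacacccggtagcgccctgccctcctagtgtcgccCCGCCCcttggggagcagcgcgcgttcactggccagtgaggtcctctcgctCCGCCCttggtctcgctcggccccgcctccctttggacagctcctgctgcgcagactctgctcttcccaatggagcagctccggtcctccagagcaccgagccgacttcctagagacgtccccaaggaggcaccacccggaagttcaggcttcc

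All 10 members matched the promoter table, with 15 windows of 250 bases before a start, and motifs were searched on both strands in these and in all 32851 windows of that length. GCATGCGC stood in 1 member window, that of Opa1, and in 2.26% of all windows. Its matches on the 2 strands overlap there and begin 59 and 57 bases before the start given in the promoter table. ACGTG stood in a window of Mfn2 and in that of Bnip3, and in 16.6% of all windows. TGACG, part of the cAMP response element, stood in windows of Mfn1, Mfn2, Yme1l1 and Mff, and in 17.8% of all; in Mfn2 it overlaps ACGTG. The GC box GGGCGG stood in at least 1 window of each of the 10 genes, in 13 of the 15 windows, and in 32.7% of all. The ERR site AAGGTCA (4.08% of all), the full cAMP response element TGACGTCA, which contains TGACG (1.55%), and TCACGTGA, the core of the CLEAR element of lysosomal genes, which contains ACGTG (0.785%), were in none of the 15. A match is a description of these letters only.

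At 1 week, 8 of the 21 member probe sets rose and 2 fell in the cold (limma, Benjamini-Hochberg adjusted p under 0.05 over all probe sets tested). The array as a whole moved widely: 45.7% of its probe sets passed the same test, 18.5% upward and 27.2% downward, so the share of members called was near that of the array while their direction was mostly upward. At 5 weeks 10 rose and 3 fell, against 33.0% of all probe sets called, 13.1% up and 20.0% down. With the mean of the muscle list in the fit, 7 rose and 3 fell at 1 week. In that fit 6 rose and 5 fell at 5 weeks, so the mostly upward balance was not seen there. The array moved too: that fit called 3733 of all 22378 probe sets at 5 weeks, 46.4% of them rises. Without the covariate it was 7395, 39.5% of them rises. The muscle mean varied within groups mainly through 1 week cold array 2, at 9.94 against 5.28 and 5.39. It was 8.23 to 8.53 in 5 week controls and 4.94 to 5.14 in 5 week cold. This covariate thus cannot be told apart from the group at 5 weeks. By the brightest probe set of each gene, 4 of the 10 genes rose and 1 fell at 1 week (17.1% and 30.7% of 12855 genes), and 5 rose and 1 fell at 5 weeks (14.2% and 20.2%). The median change of the 21 was 0.14 (log2) at 1 week and 0.27 at 5 weeks, beside -0.04 over all probe sets at both times. Probe sets of 1 gene share its transcript and are not independent.

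The 3 arrays of each group did not overlap in 11 member probe sets at 1 week (8 with cold above, 3 below; 27.8% and 30.0% of all probe sets) and in 17 at 5 weeks (13 above, 4 below; 26.3% and 30.0%). Centring each array on its median moved the median change of all probe sets to 0.11 at 1 week and 0.13 at 5 weeks, and the share of calls that were rises from 40.5% to 59.3% at 1 week and from 39.5% to 67.8% at 5 weeks; quantile normalization gave 49.8% and 51.0%. All member calls at 1 and 5 weeks kept their direction and passed the test under both scalings. In bulk tissue, fewer cells of a type and less RNA per cell cannot be told apart.

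**Figure D1:**
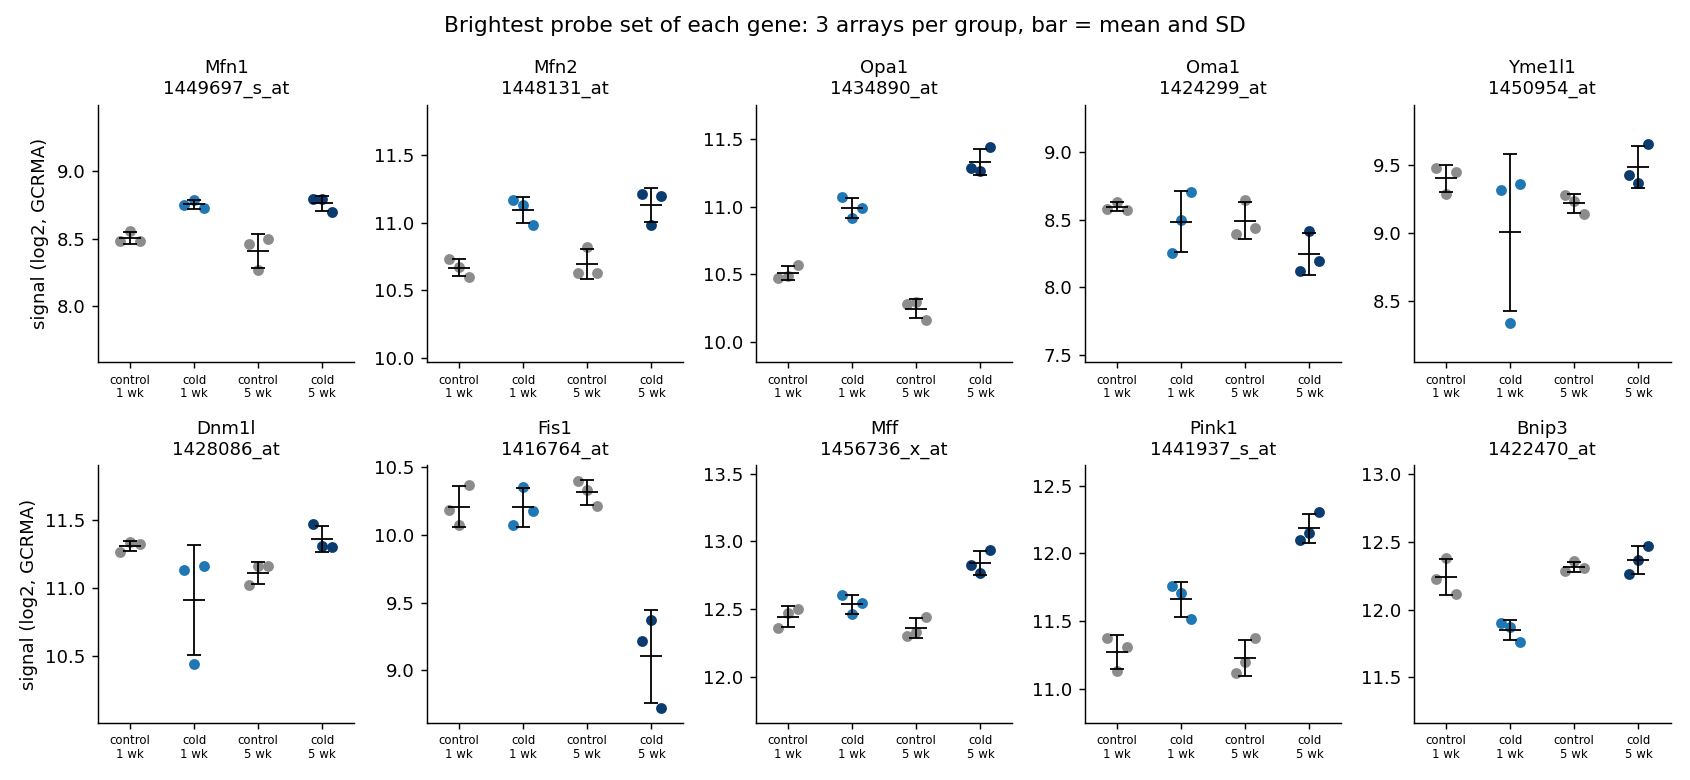
Signal (log2) of the brightest probe set of each of the 10 genes; points are the 3 arrays of a group, bars the mean and SD, and each panel has its own axis of levels. The cold arrays lie above the controls at both times for Mfn1, Mfn2, Opa1 and Pink1, Mff separates at 5 weeks, Fis1 drops at 5 weeks from a mean of 10.31 to 9.10, and Bnip3 is low in the 1 week cold arrays.

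Among the fusion genes, Opa1 rose on all 3 of its probe sets at both times. On the brightest, 1434890_at, the signals were 10.47, 10.49 and 10.57 in the 1 week controls and 11.07, 10.92 and 10.99 in 1 week cold. At 5 weeks they were 10.28, 10.29 and 10.16 in controls and 11.28, 11.26 and 11.44 in cold. Every cold array was higher than every control array of its time, and the 5 week cold arrays were the highest of the 12. The rise was 1.40-fold at 1 week (log2 0.48, SE 0.08, adjusted p = 0.00104) and 2.12-fold at 5 weeks (log2 1.08, SE 0.08, adjusted p = 1.19e-05).

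The other probe sets of Opa1 had the larger rise at 1 week. Probe set 1449214_a_at, whose suffix marks probes shared by transcript forms of the gene, read 8.74, 8.54 and 8.69 in 1 week controls, 10.19, 9.78 and 10.22 in 1 week cold, 8.19, 8.50 and 8.38 in 5 week controls and 9.66, 9.61 and 9.20 in 5 week cold. Again the groups did not overlap at either time, and 5 week cold array 3 was the lowest of the cold arrays. Its rise was 2.65-fold at 1 week (log2 1.40, SE 0.15, adjusted p = 6.40e-05) and 2.19-fold at 5 weeks (log2 1.13, SE 0.15, adjusted p = 0.000345). Probe set 1418768_at went from 6.27, 5.74 and 6.35 to 7.57, 7.39 and 8.35 at 1 week, a 3.14-fold rise (log2 1.65, SE 0.24, adjusted p = 0.000325). At 5 weeks it went from 6.21, 6.39 and 6.17 to 7.17, 6.94 and 6.72, which passed the test narrowly (log2 0.69, SE 0.24, adjusted p = 0.0472) and did not in 14 of 24 alternatives, among them the muscle covariate (log2 0.27) and the Actb covariate (log2 1.35). All 3 probe sets at 1 week, and 1434890_at and 1449214_a_at at 5 weeks, were called under every alternative run, the RNA quality and muscle covariates included.

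Mfn2, the mitofusin that also tethers mitochondria to the endoplasmic reticulum, rose by a like amount at both times. Its signals were 10.73, 10.67 and 10.60 in 1 week controls, 11.17, 11.13 and 10.98 in 1 week cold, 10.63, 10.82 and 10.63 in 5 week controls and 11.21, 10.99 and 11.20 in 5 week cold. The lowest cold array, 10.98, lay above the highest control array, 10.82. The rise was 1.34-fold at 1 week (log2 0.43, SE 0.10, adjusted p = 0.00456) and 1.36-fold at 5 weeks (log2 0.44, SE 0.10, adjusted p = 0.00571). The 1 week call did not pass without 1 week control arrays 2 and 3 (log2 0.36), and the 5 week call did not pass with the Actb covariate (log2 0.23).

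The probe sets of Mfn1 differed. On 1449697_s_at, the brighter, the signals were 8.48, 8.55 and 8.48 in 1 week controls and 8.74, 8.79 and 8.72 in 1 week cold, then 8.46, 8.27 and 8.50 in 5 week controls and 8.79, 8.79 and 8.70 in 5 week cold. The groups did not overlap at either time. The rise was 1.19-fold at 1 week (log2 0.25, adjusted p = 0.0316) and 1.28-fold at 5 weeks (log2 0.35, adjusted p = 0.00832), both with SE 0.08. The 1 week call was lost in 10 of 25 alternatives, among them the fit without 1 week cold array 2, the array with the muscle signal (log2 0.23), and those with the Gapdh (log2 0.22) or muscle covariate (log2 0.23). The 5 week call was lost with the Actb covariate (log2 0.43, adjusted p = 0.190) and the muscle covariate (log2 0.39, adjusted p = 0.0556). By the mean of the gene's probe sets the 5 week rise did not pass either (log2 0.24, adjusted p = 0.0736). Probe set 1426773_at went from 7.83, 7.70 and 7.64 to 8.36, 8.13 and 8.62 at 1 week (1.57-fold, log2 0.65, SE 0.16, adjusted p = 0.00704). That call was lost with the Gapdh covariate (log2 0.31, adjusted p = 0.261) and without 1 week control arrays 2 and 3 (log2 0.54, adjusted p = 0.158). At 5 weeks its cold arrays, 7.90, 7.78 and 7.34, spanned the controls at 7.64, 7.59 and 7.41 (log2 0.13, adjusted p = 0.565).

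The proteases that cut Opa1 had no call upward on any probe set. Oma1, the stress-activated protease, read 8.58, 8.63 and 8.57 in 1 week controls, 8.26, 8.50 and 8.70 in 1 week cold, 8.39, 8.65 and 8.44 in 5 week controls and 8.12, 8.42 and 8.20 in 5 week cold. Its groups overlapped at both times. The differences were -0.11 at 1 week (log2, 95% interval -0.39 to 0.17, adjusted p = 0.499) and -0.25 at 5 weeks (95% interval -0.53 to 0.03, adjusted p = 0.155).

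Yme1l1, the ATP-dependent protease of the inner membrane, gave different readings by probe set. Probe set 1423360_at fell at both times. It read 6.45, 6.86 and 7.00 in 1 week controls, 5.52, 5.39 and 5.61 in 1 week cold, 6.32, 6.55 and 6.35 in 5 week controls and 5.52, 5.56 and 5.29 in 5 week cold, so every cold array was below every control array. It fell by 1.26 on the log2 scale at 1 week (2.40-fold lower, SE 0.14, adjusted p = 7.72e-05) and by 0.95 at 5 weeks (1.94-fold lower, SE 0.14, adjusted p = 0.000631). The 1 week fall passed under every alternative run, and the 5 week fall under each but the Actb covariate (log2 -0.66).

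The brighter probe sets of Yme1l1 passed at neither time. On 1450954_at, the brightest, the 1 week controls were 9.48, 9.29 and 9.45 and the cold arrays 9.32, 8.34 and 9.36, with array 2, the array with the muscle signal, far below the rest. The 1 week difference was -0.40 (adjusted p = 0.166) and -0.07 without that array. At 5 weeks the cold arrays, 9.43, 9.37 and 9.66, were above the controls, 9.28, 9.24 and 9.14 (log2 0.27, adjusted p = 0.393). Once the muscle list mean entered the limma fit the value turned to -0.47 (adjusted p = 0.0348). The slope of that covariate rests mainly on 1 week cold array 2. The turned value is therefore not an independent reading of the 5 week arrays. Probe set 1423361_at was 8.50, 8.39 and 8.36 against 8.60, 7.97 and 8.88 at 1 week (log2 0.07, adjusted p = 0.776). It was 8.22, 8.45 and 8.42 against 8.00, 7.86 and 7.72 at 5 weeks, not overlapping but short of the threshold (log2 -0.50, SE 0.19, adjusted p = 0.0638). It passed in 5 of 24 alternatives. With the muscle covariate it was -1.03 (log2, adjusted p = 0.00464), and that covariate takes its slope mainly from 1 week cold array 2. Without that array the value stayed at -0.50, with SE 0.11 (adjusted p = 0.00641). It also passed on the 6 arrays of 5 weeks alone (log2 -0.50, SE 0.11, adjusted p = 0.0129), which hold no 1 week array. The others were the fit without 1 week cold array 3 (adjusted p = 0.0304) and that against the 1 week controls (log2 -0.55, adjusted p = 0.0446).

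**Figure D2:**
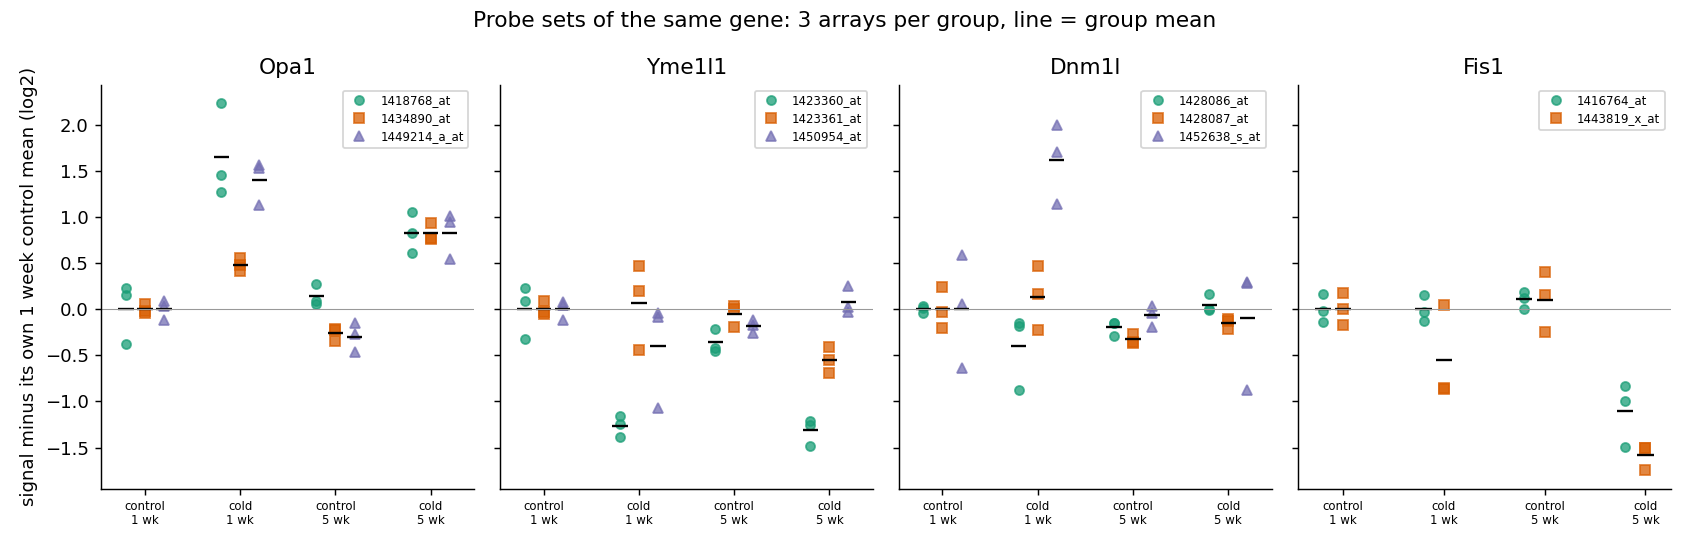
Signal of each tested probe set of Opa1, Yme1l1, Dnm1l and Fis1 minus its own 1 week control mean (log2); symbols are probe sets, points the 3 arrays of a group and short lines the group means. The Opa1 and Fis1 probe sets share a direction at 5 weeks, while those of Yme1l1 and Dnm1l part: 1423360_at of Yme1l1 is 1.26 lower in 1 week cold and 1452638_s_at of Dnm1l 1.61 higher, and 1 array pulls their brightest probe sets down.

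Among the fission genes, Dnm1l had no call on its bright probe sets. On 1428086_at, the brightest, the 1 week controls were 11.27, 11.34 and 11.33 and the cold arrays 11.13, 10.44 and 11.16. All 3 cold arrays were lower, array 2 by the most, and the difference did not pass (log2 -0.40, SE 0.16, adjusted p = 0.0649). At 5 weeks the cold arrays, 11.47, 11.31 and 11.31, were higher than the controls, 11.02, 11.16 and 11.16 (log2 0.25, SE 0.16, adjusted p = 0.271). Without 1 week cold array 2, whose spread enters the shared error, the 1 week value was -0.17. The 5 week value, at the same 0.25, then passed the test. With 1 week cold array 1 or 3 left out instead, the 1 week fall passed (log2 -0.51 and -0.53).

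The other probe sets of Dnm1l stood apart from each other. Probe set 1428087_at was 9.13, 9.30 and 9.57 against 9.50, 9.11 and 9.81 at 1 week (log2 0.14, adjusted p = 0.511) and 8.98, 9.06 and 8.97 against 9.23, 9.21 and 9.11 at 5 weeks (log2 0.18, adjusted p = 0.427). The dim probe set 1452638_s_at rose at 1 week, from 5.82, 5.14 and 6.36 to 7.48, 6.91 and 7.77, or 3.05-fold (log2 1.61, SE 0.36, adjusted p = 0.00422). With the Gapdh covariate that value was 0.96 and did not pass. At 5 weeks its cold arrays, 6.05, 6.07 and 4.89, spanned the controls, 5.58, 5.73 and 5.80 (log2 -0.03, adjusted p = 0.955), and array 3, the lowest, was the 5 week cold array with the high Gapdh difference.

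Fis1 fell at 5 weeks on both of its probe sets and had no call at 1 week. On 1416764_at the signals were 10.19, 10.07 and 10.37 in 1 week controls and 10.08, 10.36 and 10.18 in 1 week cold, which overlap (log2 -0.0043, 95% interval -0.35 to 0.34, adjusted p = 0.984). At 5 weeks they were 10.40, 10.33 and 10.21 in controls and 9.21, 9.37 and 8.72 in cold, with every cold array lower than any other of the 12. The fall was 2.32-fold (log2 -1.21, SE 0.16, adjusted p = 0.000261), and without array 3, the lowest, it was -1.02 and still passed.

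On 1443819_x_at, whose suffix marks probes that can match other transcripts, Fis1 read 7.25, 7.07 and 7.42 in 1 week controls, 6.38, 7.29 and 6.39 in 1 week cold, 7.40, 7.65 and 7.00 in 5 week controls and 5.74, 5.50 and 5.74 in 5 week cold. Only 1 week cold array 2 lay among the 1 week controls. The 1 week difference was -0.56 (adjusted p = 0.0772), and -0.86 without that array, where it passed. The 5 week fall was 3.21-fold (log2 -1.68, SE 0.24, adjusted p = 0.000427). The Actb difference was highest in the same 5 week cold arrays, and with it as a covariate the falls were -0.45 (adjusted p = 0.225) and -1.76 (adjusted p = 0.0843); the part of RNA quality in the fall of Fis1 cannot be told apart from the group on this measure. Against the 1 week controls, which lack the muscle signal, the differences of the 5 week cold arrays were -1.11 and -1.58, both past the threshold.

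Mff, the outer membrane adaptor for Drp1, rose at 5 weeks on all 3 tested probe sets, of which 2, the brightest included, carry the suffix for probes that can match other transcripts. The brightest, 1456736_x_at, read 12.36, 12.47 and 12.50 in 1 week controls and 12.60, 12.46 and 12.55 in 1 week cold, which overlap (log2 0.09, adjusted p = 0.388). At 5 weeks it read 12.30, 12.33 and 12.44 in controls and 12.83, 12.76 and 12.94 in cold, with no overlap, and rose 1.40-fold (log2 0.48, SE 0.09, adjusted p = 0.00164). Mff was called at 5 weeks also on 1456582_x_at, from 8.78, 8.70 and 8.78 to 9.12, 9.13 and 9.18 (1.31-fold, log2 0.39, adjusted p = 0.00218), and on 1451572_a_at, from 9.85, 9.78 and 9.66 to 10.12, 9.96 and 10.16 (1.25-fold, log2 0.32, adjusted p = 0.0261). At 1 week these gave 0.08 (8.78, 8.82 and 8.81 against 8.93, 8.82 and 8.92) and 0.17 (9.86, 9.79 and 9.91 against 10.06, 10.12 and 9.88) and did not pass. The last probe set lost its 5 week call in 8 of 24 alternatives, 1456582_x_at lost it with the muscle covariate (log2 0.31, adjusted p = 0.0585), and all 3 lost it with the Actb covariate (log2 0.14 to 0.32).

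Of the mitophagy genes, Pink1 rose at both times on its brightest probe set, 1441937_s_at. The signals were 11.38, 11.13 and 11.31 in 1 week controls and 11.76, 11.71 and 11.51 in 1 week cold, then 11.11, 11.20 and 11.38 in 5 week controls and 12.10, 12.15 and 12.30 in 5 week cold. The groups did not overlap, and the 5 week cold arrays stood above the 1 week cold arrays. The rise was 1.31-fold at 1 week (log2 0.39, SE 0.11, adjusted p = 0.0136) and 1.94-fold at 5 weeks (log2 0.96, SE 0.11, adjusted p = 0.000116). The second probe set, 1451148_at, was 11.03, 10.79 and 10.87 against 10.98, 11.23 and 10.94 at 1 week, which overlap (log2 0.15, adjusted p = 0.261). At 5 weeks it was 10.98, 11.05 and 10.84 against 11.29, 11.24 and 11.30, a smaller rise of 1.25-fold (log2 0.32, SE 0.10, adjusted p = 0.0359). The 1 week call of 1441937_s_at did not pass with the Gapdh covariate (log2 0.41) or without 1 week control array 2 alone (log2 0.32, adjusted p = 0.0579). Nor did it without 1 week control arrays 2 and 3 (log2 0.28). The 5 week calls did not pass with the Actb covariate (log2 0.69 and 0.29). That of 1451148_at was lost in 8 of 24 alternatives. Among them were the Gapdh covariate (log2 0.34, adjusted p = 0.0675) and the fit without 5 week control array 3 (log2 0.26).

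Bnip3 fell at 1 week and had no call at 5 weeks. Its single probe set, 1422470_at, read 12.23, 12.38 and 12.11 in 1 week controls and 11.90, 11.87 and 11.76 in 1 week cold, with every cold array lower. At 5 weeks it read 12.28, 12.36 and 12.31 in controls and 12.26, 12.37 and 12.47 in cold, which overlap. The fall at 1 week was 1.31-fold (log2 -0.39, SE 0.09, adjusted p = 0.00557), and the 5 week difference was 0.05 (95% interval -0.16 to 0.25, adjusted p = 0.717). The 1 week value kept its size but did not pass without 1 week control arrays 2 and 3 (log2 -0.38), and was -0.32 with the Gapdh covariate, again not past the threshold.

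**Figure D3:**
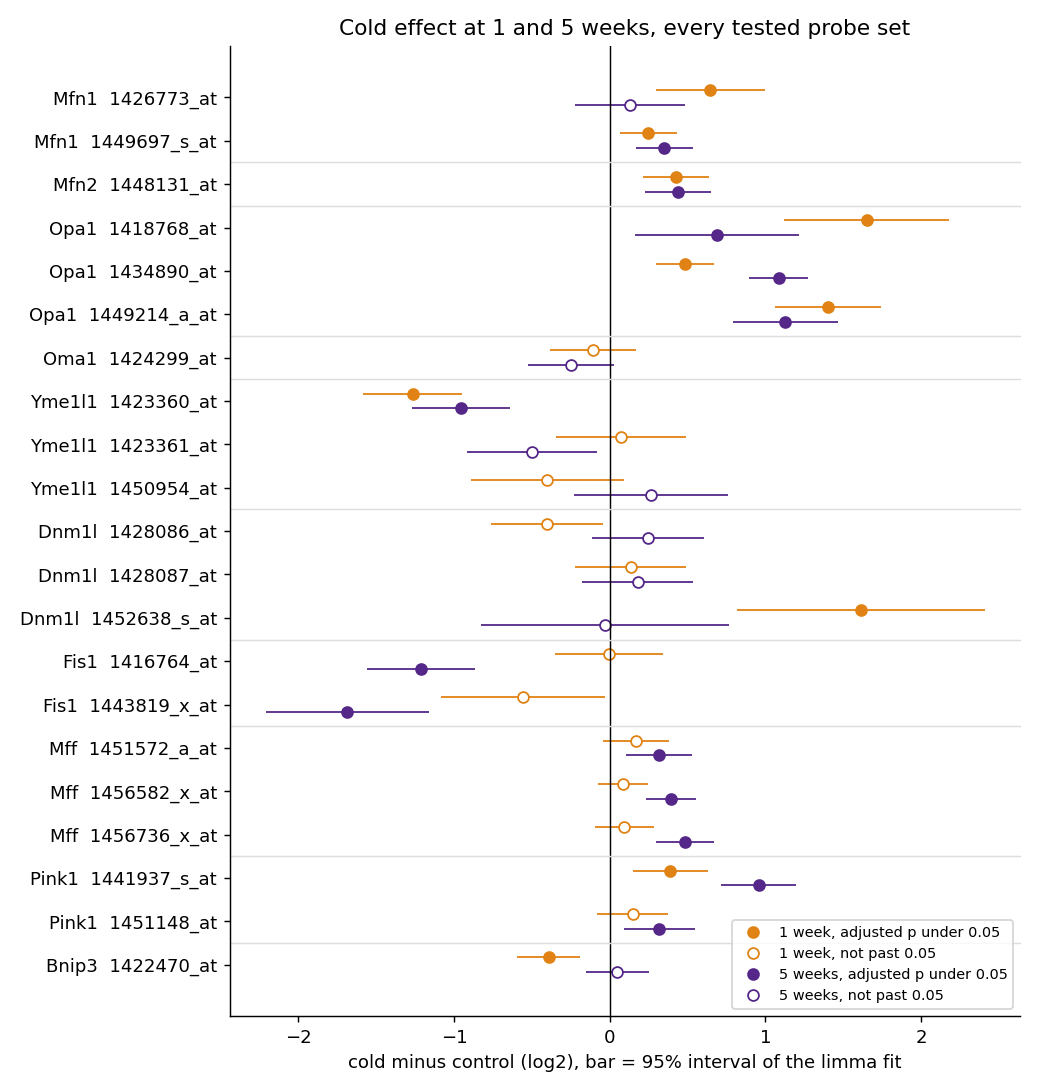
Cold minus control (log2) of the 21 tested probe sets at 1 week (orange) and 5 weeks (purple), with 95% intervals of the limma fit; filled points passed an adjusted p of 0.05. The Opa1 probe sets lie right of 0 at both times, from 0.48 to 1.65, Fis1 lies left of 0 at 5 weeks, at -1.21 and -1.68, and Bnip3 is at -0.39 at 1 week and 0.05 at 5 weeks.

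Whether the cold effect differed between 1 and 5 weeks was tested as the difference of both effects in the same fit. By limma it passed for 7 of the 21 probe sets, 4 with the higher effect at 5 weeks and 3 with the lower, beside 20.3% of all probe sets (9.84% and 10.4%). The effect at 5 weeks exceeded that at 1 week for Opa1 1434890_at, Mff 1456736_x_at, Pink1 1441937_s_at and Bnip3, and was below it for both Fis1 probe sets and Dnm1l 1452638_s_at. For Fis1 1416764_at the difference was -1.21 (SE 0.22, adjusted p = 0.00707) and for Opa1 1434890_at 0.60 (SE 0.12, adjusted p = 0.00928). These differences rest on all 4 groups, and none of the 7 passed with the Gapdh covariate (3 of 21 at an unadjusted p under 0.05), with the Actb covariate (0 of 21), with the muscle covariate or without 1 week control arrays 2 and 3 (6 of 21). Over all probe sets the calls of this difference went from 4533 to 5 with the Gapdh covariate and 0 with the Actb covariate. With the muscle covariate they went to 1445, so the loss was not particular to the members. Leaving out 1 array at a time gave 2 to 9 member calls. It gave 2 without 5 week control array 1 or 2 or 5 week cold array 3. It gave 3 without 1 week control array 2, and 4 without 1 week control array 3 or 1 week cold array 3. Over all probe sets the calls also dropped from 4533 in these fits. They were 2606, 2549 and 2958 without 5 week control array 1, 5 week control array 2 and 5 week cold array 3. Without 1 week control array 2, 1 week control array 3 and 1 week cold array 3 they were 2652, 3223 and 3897.

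Within the cold, 12 of the 21 probe sets differed between 5 weeks and 1 week, 5 higher and 7 lower at 5 weeks, beside 28.4% of all. Bnip3 was higher by 0.52 (SE 0.09, adjusted p = 0.00309) and Pink1 1441937_s_at by 0.52 (SE 0.11, adjusted p = 0.00602), and Fis1 1416764_at differed by -1.10 (SE 0.16, adjusted p = 0.00112). The Opa1 probe sets parted: 1434890_at was higher at 5 weeks by 0.34 (adjusted p = 0.0139), while 1418768_at and 1449214_a_at were lower, at -0.82 (adjusted p = 0.0268) and -0.57 (adjusted p = 0.0189). Mfn1 1426773_at (-0.69), Yme1l1 1423361_at (-0.62), Dnm1l 1452638_s_at (-1.71) and Fis1 1443819_x_at (-1.03) were also lower, and Mff 1456582_x_at (0.26) and 1456736_x_at (0.31) higher. With the Actb covariate, which separates the same groups, 0 of the 21 passed (1 at an unadjusted p under 0.05), and with the Gapdh covariate 5 passed. Leaving out 1 array at a time gave 6 to 12 calls, 6 of them without 5 week cold array 3. Over all probe sets the calls of this comparison went from 6352 to 1 with the Actb covariate and 3395 with the Gapdh covariate. They went to 3788 without 5 week cold array 3, so these losses were not particular to the members.

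Between the control groups, 0 of the 21 member probe sets differed by the limma test (2 at an unadjusted p under 0.05), beside 3.36% of all. No other tool was run. With so low a share over the array, the absence of calls for time alone is not particular to the members. The groups also differ in the muscle signal. In 5 of the 21 the 5 week controls lay wholly below the 1 week controls, and in 0 above (17.5% and 12.9% of all). Opa1 1434890_at was among the 5, at -0.26 (limma, adjusted p = 0.117).

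Genes around the members were followed through 6 lists, of which 86 of 96 genes were tested by their brightest probe set; 17.1% of all genes rose and 30.7% fell at 1 week, and 14.2% and 20.2% at 5 weeks. The MICOS complex and its partners, which form the cristae junctions that Opa1 also guards, rose most evenly: 9 of 9 genes rose at 1 week and 8 of 9 at 5 weeks, with medians of 1.15 and 0.73 (log2) beside -0.08 and -0.03 over all genes. Apoo, a MICOS subunit, rose by 1.69 (SE 0.09) and 1.74 (SE 0.09), Apool by 1.19 and 0.97, and Immt, the core scaffold mitofilin, by 1.07 and 0.93. Dnajc11 rose by 1.15 at 1 week, Micos10 by 1.00, and Samm50, of the outer membrane sorting machinery, by 1.03 at 5 weeks. Chchd6 passed at 1 week (0.40, adjusted p = 0.0446) and not at 5 weeks (0.31, adjusted p = 0.135).

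Among the other inner membrane and matrix proteases and their scaffolds, 8 of 9 tested genes rose at 1 week and 5 of 9 at 5 weeks, and none fell. Afg3l2, a subunit of the matrix-facing AAA protease, rose by 0.96 and 1.28, Clpp by 0.78 and 0.68, and Stoml2, a scaffold that holds Yme1l1, by 0.98 and 0.35. Phb2, a prohibitin of the inner membrane scaffold, rose at 1 week (0.90) and was 0.07 at 5 weeks (adjusted p = 0.600), and Clpx rose at 5 weeks (0.67). Oma1 and Yme1l1, of the same compartment, had no call upward. With the muscle or the Actb covariate, or without 1 of 5 week cold arrays 1 and 2 or 5 week control arrays 1 and 2, 3 of 9 were called at 5 weeks, and with the Gapdh covariate 1 fell at 1 week. Phb was not analysed here because no probe set used names it alone.

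Of 18 tested genes of other fusion, fission and motility factors, 8 rose and 2 fell at 1 week, and 9 rose and 1 fell at 5 weeks. Mtfp1, an inner membrane protein that promotes fission, led at both times (1.74 and 1.42, SE 0.14). Miga2, a mitoguardin of outer membrane fusion, rose by 1.04 and 0.52, and the ubiquitin ligases Mul1 and Marchf5 rose at 1 week by 0.67 and 0.53. Slc25a46 rose at 5 weeks by 0.81 and Marchf5 by 0.45. The genes called against the list were Miga1 (-0.80) and Inf2 (-0.43), an actin nucleator of division sites, at 1 week, and Dnm2 (-0.57) at 5 weeks, whose change at 1 week was 0.27. With the Actb covariate 1 of 18 was called at 5 weeks, and with the Gapdh covariate 5 rose and 0 fell at 1 week (limma; 2 fell at an unadjusted p under 0.05).

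Mitophagy receptors and adaptors other than the members had 2 rises and 2 falls among 7 at 1 week, beside 17.1% up and 30.7% down over all genes, and 1 rise and 2 falls at 5 weeks, beside 14.2% and 20.2%. Of these, Fkbp8 (0.66) and the receptor Bcl2l13 (0.56) rose at 1 week, and Tbk1 (-0.67), the kinase that activates the adaptors, and Tax1bp1 (-0.56) fell. At 5 weeks Bcl2l13 rose (0.75), and Sqstm1 (-0.64), the adaptor p62, and the receptor Fundc1 (-0.47) fell, while Fkbp8 was -0.48 (adjusted p = 0.0954). By limma, 0 of the 7 rose at 1 week without 1 week cold array 2, 1 week control array 2 or 1 week control array 3, or with the muscle covariate (2 at an unadjusted p under 0.05 in each), and 0 with the Gapdh covariate or without both control arrays (0 unadjusted in each). With the Actb covariate 0 passed at 5 weeks (1 at an unadjusted p under 0.05). Of 21 core autophagy genes, 5 rose and 1 fell at 1 week, beside the same 17.1% and 30.7%, and 1 rose and 1 fell at 5 weeks, beside 14.2% and 20.2%, with medians of 0.12 and -0.01. The rises at 1 week included the Atg8 homologues Gabarapl1 (0.42) and Gabarapl2 (0.61), the protease Atg4b (0.38) and Wipi2 (0.42), beside a fall of the kinase Ulk2 (-0.32). By limma, 0 rose at 1 week without 1 week control arrays 2 and 3 (2 at an unadjusted p under 0.05) or with the Gapdh covariate (0 unadjusted). With each array centred on its median, 8 rose and 0 fell at 1 week (0 unadjusted), and 6 rose and 0 fell at 5 weeks (1 unadjusted). At 5 weeks Map1lc3b, the gene of LC3B, rose by 0.29 (adjusted p = 0.0388), Atg3 fell by 0.37 on the log2 scale, and Atg7 (-0.55, adjusted p = 0.0590) and Gabarap (-0.76, adjusted p = 0.0596) did not pass.

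As a measure of mitochondrial transcripts at large, 20 of 22 respiratory chain and matrix genes rose at 1 week and 19 at 5 weeks, with medians of 1.14 and 0.89. The mean of the list was 11.99 to 12.30 in 1 week controls, 13.11 to 13.20 in 1 week cold, 12.11 to 12.13 in 5 week controls and 12.86 to 12.97 in 5 week cold. Uqcrfs1 rose by 1.50 and 1.20, Ogdh by 1.52 and 1.42, Ndufv1 by 1.47 and 1.53, Sdhb by 1.38 at 1 week, and Ndufs1 and Cs by 1.39 and 1.27 at 5 weeks. Of the members' brightest probe sets, the 1 week changes ran from -0.40 to 0.48 and the 5 week changes from -1.21 to 1.08. At 5 weeks Opa1 (1.08) and Pink1 (0.96) were above that list's median of 0.89, and Mff (0.48), Mfn2 (0.44) and Mfn1 (0.35) below it; these differences from the list were not tested.

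**Figure D4:**
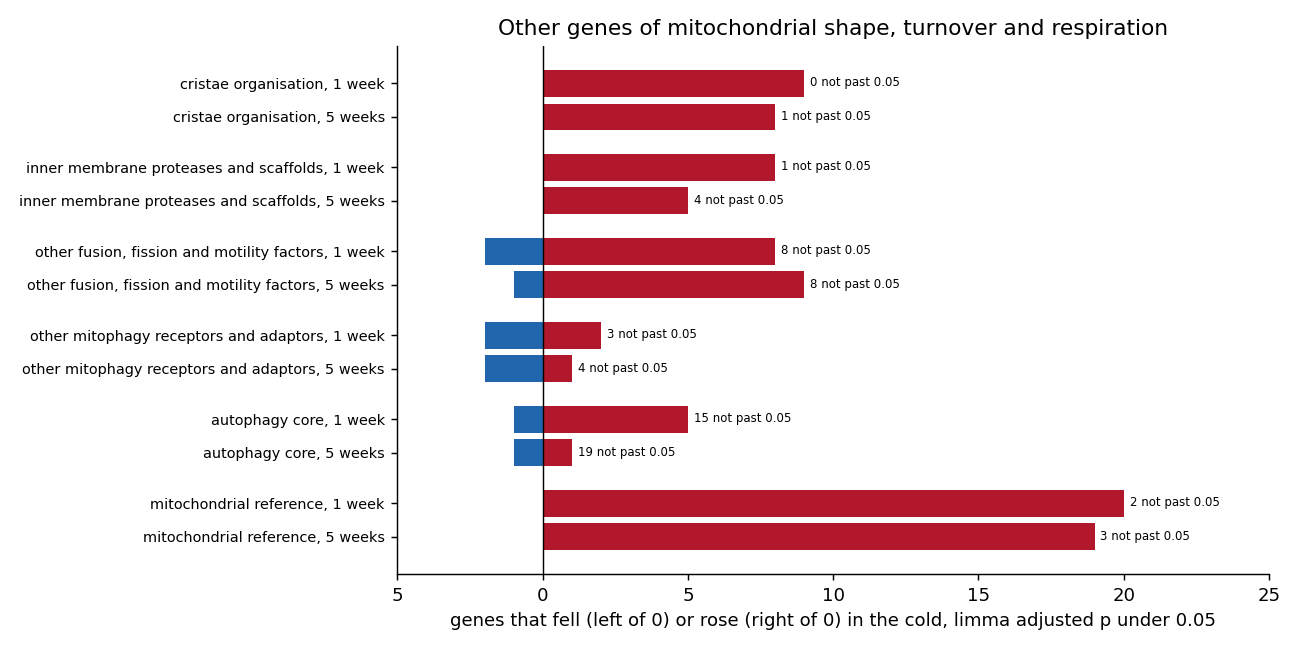
Number of genes that rose (right of 0) or fell (left of 0) in the cold at 1 and 5 weeks in the 6 lists around the members, with the number not past an adjusted p of 0.05 written beside each bar. All 9 MICOS genes and 20 of 22 respiratory and matrix genes rose at 1 week, while 15 of 21 core autophagy genes did not pass at 1 week and 19 of 21 at 5 weeks.

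The genes whose signal ran most like that of each member over the 12 arrays are given as a description, by Pearson's r over brightest probe sets; the arrays share group, RNA quality and muscle signal, so no p is given. Opa1 ran closest to 3110021A11Rik (r = 0.985), Tspan12 (0.981) and Dip2a (0.977), and Fis1 to Dguok (0.984), a mitochondrial deoxyguanosine kinase, Ssr4 (0.981) and Eif6 (0.975). Pink1 ran closest to Bphl (0.971), Phkb (0.966) and Ciao2a (0.961), and Bnip3 to Trip6 (0.970), Bnc2 (0.954) and Zkscan3 (0.952). For Mfn2 the closest were Fech (0.958), the last enzyme of heme synthesis, Ptgr2 (0.958) and Tigd5 (0.956), and for Mfn1 Capn6 (0.966), Gm20346 (0.963) and Il1f6 (0.955). For Mff they were Qrsl1 (0.965), Cep85 (0.965) and Ppp2r3c (0.964).

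Of the remaining members, Yme1l1 ran closest to Hmgn5 (r = 0.976), Zfp943 (0.966) and Zfp979 (0.956), and Dnm1l to Ift74 (0.967), Zfp958 (0.959) and Gucy1a2 (0.950), and both members were lowest on 1 week cold array 2, whose part in these likenesses was not tested. Oma1, which had no call, had the weakest likeness, to Gtf3c4 (0.866), Rab3gap1 (0.851) and Ccdc25 (0.849).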

How the data were processed

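The deposited table, 1 for the series, gives a log2 signal for every probe set on each of the 12 arrays. The submitters' processing notes name GCRMA, a method that subtracts background, brings arrays to a common scale and combines the probes of each set, without further settings. Per the labels' protocols, 5 µg of total RNA was amplified in 1 round and labelled with biotin. Of 45101 probe sets, 64 were controls, 932 named several genes and 9160 none in the array annotation, and these were left out of the tests; symbols were updated through the gene identifier for 34741. No value was missing.

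A single limma model (3.58.1, R 4.3.3; lmFit, then eBayes) held the 4 group means of all 12 arrays and gave 2-sided moderated tests, with Benjamini-Hochberg adjustment over all probe sets above log2 4 on at least 3 arrays, threshold 0.05. The scripts were tested on simulated data. Genes of lists were counted by the probe set of highest mean, with p-values adjusted over all probe sets. Folds are 2 to the power of the log2 difference. The members, lists and motifs were chosen with earlier results of these data known. All members and their probe sets are named; of each list, up to 4 genes of smallest adjusted p at each time and those called against its direction; Ucp1 checks the labels; likeness takes the 3 genes of highest r. Chchd6 and values of a named gene at its other time were added after their values were seen. Same-numbered arrays of cold and control deviated together by r = -0.08 to 0.09, so the replicate numbers were not taken as pairs. Alternatives were other scalings and filters, 1 value per gene, RNA quality and muscle covariates, arrays left out, a block, a trend, fits on 6 arrays and, added after seeing the data, the 1 week controls in place of the 5 week controls. Genes without a probe set that names them alone, such as Optn and Bnip3l, were not analysed here.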

Additional observations from a re-analysis of the deposited data

Results flagged for a closer look

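In 7 member probe sets the cold effect at 5 weeks differed from that at 1 week by the test of the difference itself (limma, adjusted over all probe sets, log2 units). Fis1 1416764_at gave -1.21 (SE 0.22, adjusted p = 0.00707), its cold arrays being low at 5 weeks only. Fis1 1443819_x_at gave -1.13 (SE 0.34, adjusted p = 0.0385). Opa1 1434890_at gave 0.60 (SE 0.12, adjusted p = 0.00928), with 2 other Opa1 probe sets at -0.96 and -0.28, neither past the threshold. The controls of 1434890_at also moved from 1 to 5 weeks, by -0.26 (limma, adjusted p = 0.117), which enters that difference. Pink1 1441937_s_at gave 0.57 (SE 0.15, adjusted p = 0.0276), while Pink1 1451148_at gave 0.17 (adjusted p = 0.439). Bnip3 1422470_at gave 0.44 (SE 0.13, adjusted p = 0.0376), a fall at 1 week that was not seen at 5 weeks. Mff 1456736_x_at gave 0.39 (SE 0.12, adjusted p = 0.0438). The other Mff probe sets, 1456582_x_at and 1451572_a_at, gave 0.31 (adjusted p = 0.0566) and 0.15 (adjusted p = 0.460). Dnm1l 1452638_s_at gave -1.64 (SE 0.51, adjusted p = 0.0441), a rise at 1 week on a dim probe set whose lowest 5 week cold array had the high Gapdh difference. The brightest Dnm1l probe set, 1428086_at, gave the opposite sign, 0.65 (adjusted p = 0.0696), and 1428087_at gave 0.04 (adjusted p = 0.913).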

How the results depend on the processing

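Alternatives changed 1 choice at a time. The wider lists were not refitted on 6 arrays or with the trend, nor the difference between the effects on 6 arrays; fits with 1 value per gene have no value for dimmer probe sets. At 1 week 10 member probe sets were called, and 5 with the Gapdh covariate or without 1 week control arrays 2 and 3, which leaves 1 control array, taken to have the spread of the other groups. At 5 weeks 13 were called (10 up), 11 with the muscle covariate (6 up), and 2 with the Actb covariate, whose values in 5 week cold do not overlap those of any other group. The list genes called at 5 weeks went from 47 to 24 with the Actb covariate. Over all 22378 probe sets, calls at 1 week went from 10235 to 4332 with the Gapdh covariate. Those at 5 weeks went from 7395 to 3733 with the muscle covariate, 46.4% of them rises, and to 1032 with the Actb covariate. The drops in the member counts were thus not particular to the members. The difference between the effects was called for 7 probe sets, and for 2 of 10 genes by the mean of a gene's probe sets, 1 with the muscle covariate, 3 with the replicate block and 0 with the Gapdh or the Actb covariate or without 1 week control arrays 2 and 3 (limma; 3, 0 and 6 at an unadjusted p under 0.05). Leaving out 1 array at a time gave 2 to 9 for it. Over all probe sets that difference was called for 4533, for 5 with the Gapdh and 0 with the Actb covariate. With 1 array left out it was called for 2549 to 5250. Over the whole array, 5 weeks against 1 week in cold called 6352 probe sets, 3395 with the Gapdh and 1 with the Actb covariate, and 3788 to 6562 with 1 array left out, the lowest without 5 week cold array 3. In controls it called 751, 66 with the Gapdh covariate, 75 without 1 week control arrays 2 and 3, 488 with the muscle covariate, and 204 to 1564 with 1 array left out, the highest without 1 week control array 1; each of the 5 other control arrays left out gave 204 to 279. The cause of these shifts was not tested.

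Single values turned in 3 cases. For Opa1 the difference between the effects was -0.21 by the mean of its probe sets, for Dnm1l 1452638_s_at it was 0.0056 with the Actb covariate, and for Yme1l1 1450954_at the 5 week effect was -0.47 with the muscle covariate. Of the other refits of single probe sets, 1301 kept direction and side of the threshold, 131 lost and 21 gained a call, and 53 changed sign with no call in either fit. The replicate block changed the counts of the cold effects at 1 and 5 weeks by less than 1.5 times.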

Other observations

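Between 5 weeks and 1 week of cold, the lists around the members moved unevenly. Of 9 MICOS genes 6 were lower at 5 weeks and none higher (median -0.38, log2), of 22 respiratory chain and matrix genes 8 were lower and none higher (median -0.20), and of 9 inner membrane proteases and scaffolds 3 were lower and 1 higher (median -0.30), beside 15.1% of all genes higher and 11.7% lower. Of 18 other fusion, fission and motility factors 5 were lower and 2 higher, of 7 mitophagy genes 2 were lower and 1 higher, and of 21 core autophagy genes 3 were lower and 2 higher. These are values of 2 groups that also differ in the Actb 3 prime to 5 prime difference, and their part in each other was not tested.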
